A study of Mus musculus with 6 samples.

Results

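The annexins are a family of proteins that bind the inner face of membranes when calcium rises, and 9 annexin genes are described here: Anxa1, Anxa2, Anxa3, Anxa4, Anxa5, Anxa6, Anxa7, Anxa8 and Anxa11. They were chosen by gene symbol, as every probe that the platform annotation assigns to one of them, which gave 20 of 45281 probes and 9 of 19057 named genes. The choice was made with the difference between the knockdown and control arrays already known, so that difference, and whether a gene passed the threshold of the fit over all genes, is given for these genes as a description and supports nothing. The remaining family members on the array, Anxa9, Anxa10 and Anxa13, are given beside them.

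The cells were mouse embryonic stem (ES) cells, kept undifferentiated with the cytokine LIF and 15% serum on embryonic fibroblasts that mitomycin C had stopped from dividing (feeder cells). Electroporation delivered a pHYPER shRNA vector to all cultures, and puromycin selection began at 24 h and lasted 48 h. Of the arrays, 3 are labelled control, with no account of that vector's insert, and 3 carry a shRNA targeting Ep400 (shEp400), the ATPase of the Tip60-p400 chromatin remodelling complex. The comparison asks which transcripts differ when this remodeller is depleted in ES cells. The labels do not say whether separate cultures were grown for the arrays, so every p-value refers to the spread among these arrays, which may be technical.

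Annexins share a conserved core of annexin repeats, through which calcium bridges the protein to acidic phospholipids such as phosphatidylserine, and differ in the N-terminal tail ahead of it. The tails of several members dock small calcium-binding proteins of the S100 family, which joins a pair of annexin molecules, and so a pair of membranes, into one complex. The family takes part in the sealing of torn plasma membrane, in exocytosis and endocytosis, and in anchoring actin beneath the membrane. Fibroblasts and epithelial cells are known for abundant annexins A1, A2 and A5.

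All arrays lay on one slide with control at one end and shEp400 at the other, so slide position and treatment cannot be told apart. Between 15441 and 17337 probes per array were above background (detection p under 0.01), and the number of arrays limits the precision. The 13 ES cell markers looked up were all detected on every control array. Ep400 itself had normalized log2 signals of 9.72, 9.58 and 9.56 for control and 8.88, 9.11 and 9.14 for shEp400 (log2 difference -0.58, SE 0.16, limma adjusted p = 0.0159). These rest on a single Ep400 probe, detected on all 6 arrays, as its other probes were detected on 0. With cyclic loess normalization the adjusted p was 0.0631, and leaving out control replicate 1 it was 0.0629, so the call did not survive either setting.

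The annexins fell into 5 genes that were far higher on the shEp400 arrays and 4 whose groups overlapped. Anxa1, Anxa2, Anxa3, Anxa5 and Anxa6 were higher by 1.86-fold to 5.35-fold, and every shEp400 array lay above every control array. Anxa4, Anxa7, Anxa8 and Anxa11 differed by log2 values between -0.22 and 0.33. All 9 genes had a probe detected on at least 3 arrays, and 5 of 9 were called higher and 0 lower by limma at an adjusted p of 0.05, where 20.6% of the 9736 genes tested were called higher, 23.1% lower and 43.7% in either direction. All shEp400 arrays lay above all control arrays for 25.1% of genes tested and below them for 30.3%. The median log2 difference was 0.89 over the 9 annexins and -0.06 over all genes tested. Since these genes were picked with this contrast in view, nothing is read from that count.

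The promoters of Anxa1 and Anxa2, which were higher, and of Anxa11, whose groups overlapped, are printed to show how unlike the start regions within the family are. Each runs 5′ to 3′ on the gene's strand over the 250 bases before the transcription start, from RefSeq on GRCm38.p6. Capitals mark matches to any motif searched. These were AP-1 (TGANTCA), the TATA box (TATAAA), the GC box (GGGCGG), the TEAD motif (GGAATG), the E-box (CACGTG) and the CArG box of the factor SRF, on both strands, and no match in these windows overlapped another. The windows are Anxa1 at chr19:20390672-20390921, minus strand, Anxa2 at chr9:69453433-69453682, plus strand, and Anxa11 at chr14:25841905-25842154, plus strand.
Anxa1: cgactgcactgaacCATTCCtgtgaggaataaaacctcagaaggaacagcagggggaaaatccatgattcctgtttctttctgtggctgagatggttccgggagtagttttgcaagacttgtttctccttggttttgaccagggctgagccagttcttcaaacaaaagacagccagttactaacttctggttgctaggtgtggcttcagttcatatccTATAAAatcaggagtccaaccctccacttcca
Anxa2: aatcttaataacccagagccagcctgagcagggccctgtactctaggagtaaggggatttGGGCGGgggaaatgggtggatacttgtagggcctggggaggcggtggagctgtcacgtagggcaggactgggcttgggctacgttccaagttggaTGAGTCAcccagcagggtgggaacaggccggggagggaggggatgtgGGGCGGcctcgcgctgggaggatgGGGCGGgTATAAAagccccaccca
Anxa11: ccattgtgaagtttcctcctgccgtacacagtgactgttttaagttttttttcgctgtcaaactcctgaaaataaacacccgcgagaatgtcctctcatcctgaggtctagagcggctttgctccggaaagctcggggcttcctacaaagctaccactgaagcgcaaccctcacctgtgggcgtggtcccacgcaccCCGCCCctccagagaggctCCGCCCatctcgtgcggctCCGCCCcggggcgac

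RefSeq windows of 300 bases, 250 before to 50 after the start, were matched by symbol for 7 of the 9 members, and Anxa3 and Anxa6 had none. The Anxa1 window held 1 TATA box and 1 TEAD match, and 3 CpG dinucleotides (CpG observed over expected 0.179). The Anxa2 window held 1 AP-1 match, 1 TATA box and 3 GC boxes, and the Anxa5 window held 1 CArG box after the start. Of the members whose groups overlapped, Anxa11 had 3 GC boxes and 25 CpG dinucleotides (observed over expected 0.969), and Anxa8 had no match to any motif. Anxa7 and Anxa4 each have 2 annotated starts. The 2 windows of Anxa7 held 1 and 4 GC boxes, with 1 E-box in the latter, and those of Anxa4 held 1 and 0 GC boxes. Because the windows of Anxa7 overlap, the GC box of the former is also 1 of the 4 in the latter. CpG observed over expected was 0.46 for Anxa2, 0.589 for Anxa5 and 0.205 for Anxa8. It was 0.291 and 0.695 for the windows of Anxa7 and 0.636 and 0.23 for those of Anxa4. The values of the higher members and of the others thus overlapped. Over all windows the median was 0.384, with quartiles of 0.176 and 0.75. Anxa7, Anxa8 and Anxa11 all lie on mouse chromosome 14. Over all 32851 windows, an AP-1 match was present in 7.81%, a TATA box in 13.6%, a GC box in 35.7%, a TEAD match in 14.7%, an E-box in 7.15% and a CArG box in 1.63%. These matches describe the letters only and say nothing of binding.

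Anxa2 and Anxa1 are the members known for docking S100 proteins at the plasma membrane. Anxa2 pairs with S100a10 in a complex that binds actin and gathers plasminogen and its activator at the cell surface. Its normalized log2 signal was 11.30, 11.39 and 11.004 on control arrays 1, 2 and 3 and 13.45, 13.61 and 13.63 on shEp400 arrays 1, 2 and 3. All shEp400 arrays were high and close together, and the groups were apart by more than 2 log2 units. The means were 11.23 ± 0.201 (SD, n = 3) and 13.56 ± 0.101 (SD, n = 3), a 5.04-fold difference (log2 difference 2.33, SE 0.17). In the deposited signals the same probe read 2108, 2642 and 2279 across the control arrays and 11038, 11155 and 15341 with shEp400.

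Anxa1, whose protein is induced by glucocorticoids and dampens inflammation through formyl peptide receptors, was dim. Its normalized log2 signal was 5.13, 4.63 and 5.46 on the control arrays, of which 2 of 3 were above background, and 6.56, 6.85 and 7.24 on the shEp400 arrays. The lowest shEp400 array lay above the highest control array. The means were 5.07 ± 0.418 (SD, n = 3) and 6.89 ± 0.342 (SD, n = 3), a 3.52-fold difference (log2 difference 1.82, SE 0.25). Because the probe lies near background, the size depended on the background correction and was 1.69-fold without it.

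Anxa5 and Anxa6 act on phosphatidylserine-rich membrane. Annexin A5 assembles into a lattice at membrane lesions and is the protein used to stain dying cells, and annexin A6, which carries a duplicated core, works in endocytosis, cholesterol transport and repair. Anxa5 had normalized log2 signals of 10.17, 10.23 and 9.91 in the control group and 11.87, 12.22 and 12.56 in the shEp400 group. Array 3 was the highest of the shEp400 arrays, and the groups were well apart. The means were 10.10 ± 0.172 (SD, n = 3) and 12.22 ± 0.345 (SD, n = 3), a 4.33-fold difference (log2 difference 2.12, SE 0.21).

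Anxa6 had the smallest difference of the 5, except without background correction and with the authors' processed matrix, where Anxa1 was smaller (0.75 against 0.84 log2 in both). Anxa6 read 10.25, 10.19 and 9.97 for control and 10.86, 11.26 and 10.97 for shEp400. Here array 2 was the highest of the shEp400 arrays, and the groups were still apart. The means were 10.14 ± 0.147 (SD, n = 3) and 11.03 ± 0.208 (SD, n = 3), a 1.86-fold difference (log2 difference 0.89, SE 0.18). Of the genes tested, 12.9% had a larger rise.

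Anxa3, known in humans from neutrophil granules, had the largest difference of the 9, except without control replicate 2 or shEp400 replicate 3, where that of Anxa2 was larger. Anxa3 read 9.60, 9.47 and 9.72 across the control arrays and 11.64, 11.99 and 12.43 with shEp400. The control arrays were tight, the shEp400 arrays spread over 0.79 log2 units, and the groups were apart. The means were 9.60 ± 0.126 (SD, n = 3) and 12.02 ± 0.395 (SD, n = 3), a 5.35-fold difference (log2 difference 2.42, SE 0.21). It ranked 88 among all genes by size of rise, where Anxa2 ranked 122, Anxa5 186 and Anxa1 333.

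**Figure D1:**
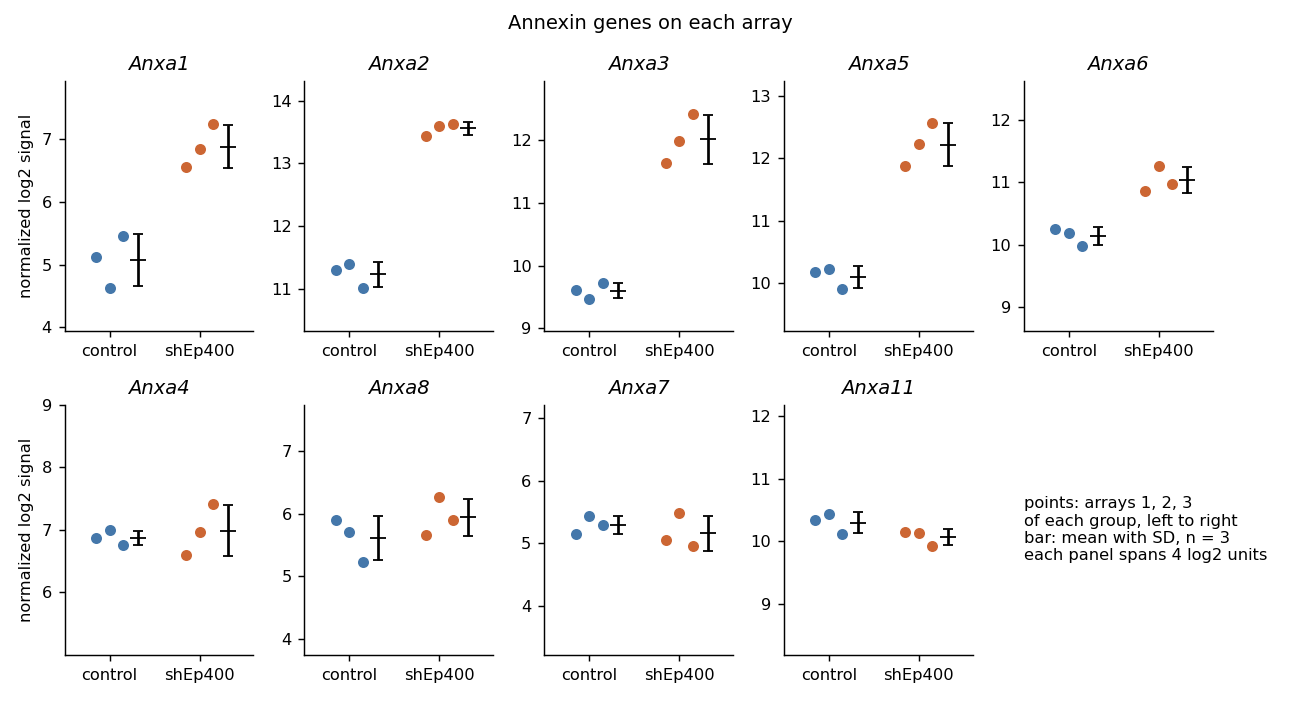
Normalized log2 signal (y axis) of the 9 annexin genes on each control and shEp400 array. Points are arrays 1 to 3 of a group from left to right, and bars are the mean with SD. In the upper row, Anxa1, Anxa2, Anxa3, Anxa5 and Anxa6, all shEp400 points lie above all control points, and for Anxa4, Anxa7, Anxa8 and Anxa11 in the lower row the groups overlap.

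Anxa4, an annexin of epithelial and secretory membranes, had overlapping groups. The log2 signal was 6.87, 6.99 and 6.76 in the control group and 6.59, 6.96 and 7.41 in the shEp400 group. The shEp400 arrays held both the lowest and the highest of the 6 values. The log2 difference of 0.12 (SE 0.22) became -0.09 without shEp400 replicate 3 and 0.32 without shEp400 replicate 1.

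Anxa8, which in human cells organizes late endosomes, was dim on all arrays, at log2 signals of 5.90, 5.71 and 5.22 for control and 5.66, 6.26 and 5.90 on the shEp400 arrays. Control array 3 was the lowest and shEp400 array 2 the highest, and the groups overlapped (log2 difference 0.33, SE 0.23).

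Anxa7 and Anxa11 carry the long N-terminal tails of the family. Annexin A7, also called synexin, promotes granule fusion and binds sorcin. Its normalized log2 signal was 5.15, 5.43 and 5.29 for control and 5.05, 5.48 and 4.95 for shEp400, of which 1 of 3 was above background. The groups overlapped near the limit of detection (log2 difference -0.13, SE 0.19).

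Annexin A11 binds S100a6 and tethers RNA granules to lysosomes. Anxa11 was well above background on all arrays, at 10.33, 10.44 and 10.11 log2 in control and 10.15, 10.14 and 9.92 in the shEp400 arrays. Control array 3 lay just below shEp400 arrays 1 and 2, so the groups overlapped. The means were 10.30 ± 0.170 (SD, n = 3) and 10.07 ± 0.129 (SD, n = 3), a log2 difference of -0.22 (SE 0.17). The difference was -0.07 with cyclic loess and -0.40 with 75th percentile scaling.

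Several annexins were read by more than 1 probe. Of the 20 probes, 13 were kept, 9 were above background on all 6 arrays and 5 on none. Both Anxa3 probes gave similar differences (log2 2.42 and 2.17). The second Anxa2 probe, ILMN_1233117, was close to background, at 5.26, 5.22 and 4.33 across the control arrays and 5.67, 5.96 and 5.97 with shEp400. Its log2 difference was 0.93 against 2.33 for the bright probe, and averaging both gave 1.63. Anxa6 rested on 1 of its 3 probes, since the others were above background on 0 and 1 of 6 arrays. Anxa7 had no bright probe, and its brightest of 3 was detected on 4 of 6 arrays. That was not its probe annotated to a RefSeq transcript, which was detected on 0 arrays. The probes of Anxa4 and Anxa11 differed little between groups, with the second kept probe of Anxa4 at 0.46 (SE 0.30) and that of Anxa11 at 0.07 (SE 0.18). Groups were apart for 7 of the 20 probes, all of them probes of the 5 higher genes. Over all genes tested, each read by a kept probe, shEp400 arrays all lay above control for 25.1% and below for 30.3%. The 20 probes include 7 that were not kept. Anxa9, Anxa10 and Anxa13 had 5 probes in all, and 0 of them were above background on any array, so these genes have no measured difference.

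**Figure D2:**
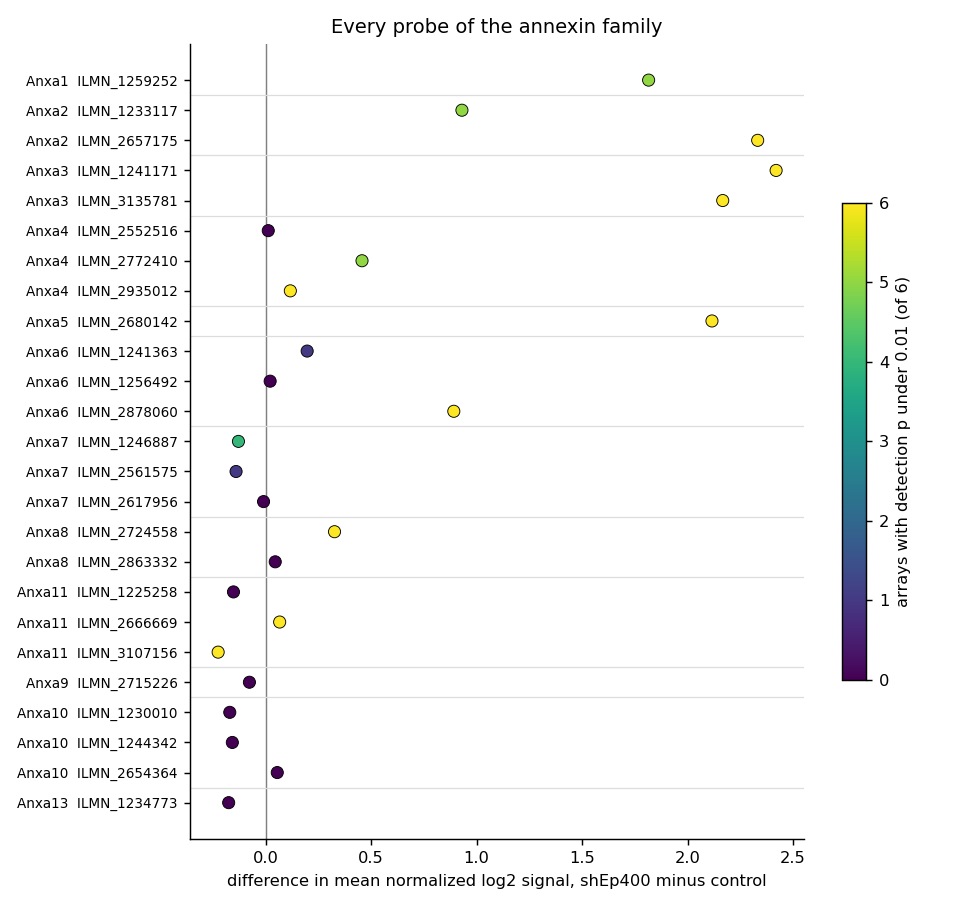
Difference in mean normalized log2 signal, shEp400 minus control (x axis), for each of the 25 probes of the 12 annexin genes on the array. The colour gives the number of arrays on which the probe was above background. Probes detected on few arrays sit near 0 for every gene, and the probes beyond 0.5 belong to Anxa1, Anxa2, Anxa3, Anxa5 and Anxa6.

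The shEp400 arrays differed among themselves in a way that several annexins shared. Relative to the control mean, Anxa5 was higher by 1.77, 2.12 and 2.46 log2 units on shEp400 arrays 1, 2 and 3, and Anxa3 by 2.04, 2.39 and 2.83. Anxa1 followed with 1.49, 1.78 and 2.17, while Anxa2 was nearly level at 2.22, 2.38 and 2.40. Anxa4, whose groups overlapped, had the same order at -0.28, 0.09 and 0.54, so the order was not limited to the genes that were higher. Anxa6 and Anxa8 were highest on array 2, at 1.12 and 0.65. Anxa11 was the lowest on array 3, at -0.37. An order of the shEp400 arrays was also present outside the annexins. Over all genes tested, shEp400 arrays 1, 2 and 3 had Pearson correlations of 0.939, 0.921 and 0.899 with control array 1. Those with control arrays 2 and 3 fell in the same order. The ES cell marker medians were -0.23, -0.44 and -1.08 on these arrays, which lay at slide positions C, B and A.

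Markers of fibroblasts, the feeder cell type, were mostly higher on the shEp400 arrays, as were 5 of the 9 annexins. Of 36 fibroblast markers listed, 26 were measured, and 22 were called higher and 0 lower, where 20.6% of genes tested were called higher. Of the 22, Col6a2 was above background on 1 of 3 control arrays. Their summed linear signal was 15973 to 17479 on the control arrays and 63031 to 98685 on the shEp400 arrays. Their median difference from the control mean was 1.56, 2.00 and 2.21 log2 units on shEp400 arrays 1, 2 and 3. Of the 11 defining markers, 6 were called higher, among them Dcn and Twist2, and 3 were not called. The remaining ones, Col3a1 and Fap, had no probe above background on more than 1 array. The defining markers had medians of 1.26, 1.52 and 1.32 on the same arrays. In bulk RNA, a larger share of feeder cells and more annexin RNA per cell cannot be told apart, and the part of the feeder cells in these differences was not tested.

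Other cell types were looked up as well. Over all genes tested, 20.6% were called higher and 23.1% lower. ES cell markers had 5 of 13 called lower and 1 higher, with medians of -0.23, -0.44 and -1.08 on shEp400 arrays 1, 2 and 3. Extraembryonic endoderm markers had 4 of 8 measured called higher and 0 lower, and of the 4 Sox17 was above background on 1 of 3 control arrays. Of the 13 listed, Gata4, Foxa2, Afp, Ttr and Cubn were detected on 0 arrays. Of 9 trophectoderm and simple epithelium markers listed, Cdx2, Eomes, Hand1 and Gata3 were not measured. Of the 5 measured, 4 were called higher, all keratins, and Tfap2c lower. Of these keratins, Krt19 was above background on 0 of 3 control arrays and Krt7 on 1 of 3, so both passed the filter through the shEp400 arrays, and Krt8 and Krt18 were above background on all arrays. Of 7 macrophage markers 3 were measured and 0 were called by limma. Among them Lyz2, the macrophage lysozyme, was 5.27, 7.40 and 5.74 log2 in control and 5.44, 9.55 and 7.47 in the shEp400 arrays, so array 2 of both groups was the highest. Cd14 was also highest on array 2 of both groups. Csf1r went the other way (log2 difference -0.34), with control array 3 its highest, and was above background on 2 control arrays and 1 shEp400 array. Ptprc was detected on 0 arrays. The part of these cell types in the annexin values was not tested.

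**Figure D3:**
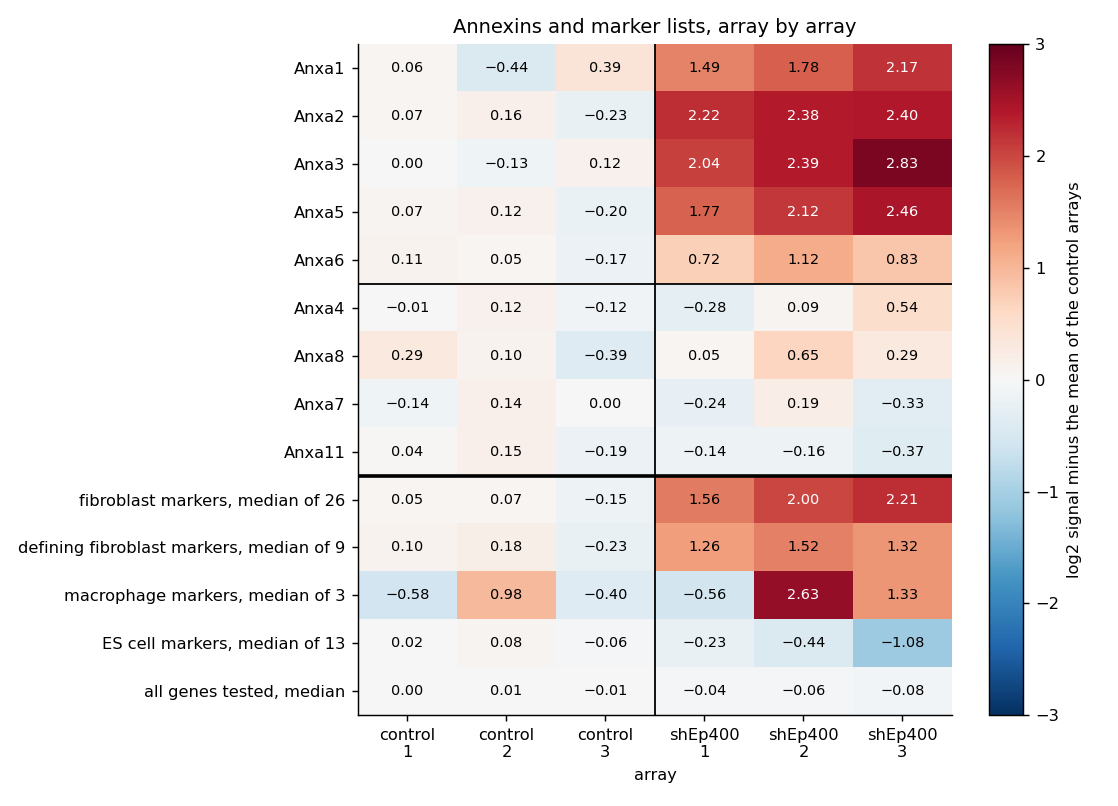
Log2 signal minus the mean of the control arrays, by array (columns), for the 9 annexins and for the medians of 4 marker lists and of all genes tested (rows). Anxa1, Anxa2, Anxa3, Anxa5 and Anxa6 and the fibroblast marker median (1.56, 2.00 and 2.21) are high on all shEp400 arrays, while Anxa4, Anxa7, Anxa8 and Anxa11 stay between -0.37 and 0.65.

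The S100 genes encode the small calcium sensors that dock on annexin tails. Of 16 listed, 6 were measured, and 6 rose and 0 fell, where 20.6% of genes tested were called higher. The remaining 10 were detected on fewer than 3 arrays, S100a4 among them. With no filter on dim probes, 7 of the 16 were called higher and the median log2 difference was 0.47, against 1.63 over the 6 measured. Over all genes these medians were -0.02 and -0.06. S100a11, the partner of annexin A1, was 11.95, 11.85 and 12.02 log2 in control and 13.26, 13.73 and 13.72 in the shEp400 arrays. It rose 3.09-fold (log2 difference 1.63, SE 0.18, limma adjusted p = 0.000153), and the groups were apart. S100a6, a partner of annexin A11, was 9.40, 9.39 and 9.65 in the control group and 11.01, 11.16 and 11.91 in the shEp400 group, a 3.69-fold rise (SE 0.24 log2, limma adjusted p = 0.000274).

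S100a10, the partner of annexin A2, rose less than Anxa2 did. Its log2 signal was 7.65, 7.20 and 7.72 for control and 7.96, 8.25 and 8.76 for shEp400, with the groups apart. It rose 1.74-fold (log2 difference 0.80, SE 0.23, limma adjusted p = 0.0202), beside 5.04-fold for Anxa2, and whether these sizes differ was not tested. Dropping control replicate 2 (adjusted p = 0.081) or shEp400 replicate 3 (adjusted p = 0.0538) ended the call. S100a1, a partner of annexin A6, rose 3.94-fold (limma adjusted p = 9.01e-05), or 2.15-fold without background correction. S100a13 and S100a16, named after their values were seen, rose 3.11-fold and 1.76-fold, and S100a16 was above background on 1 of 3 control arrays.

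The penta-EF-hand proteins are calcium sensors of another fold, and sorcin (Sri) and Alg-2 (Pdcd6) dock on annexins A7 and A11. Pdcd6 was detected on 0 arrays. Of 6 measured genes 2 rose and 0 fell, where 20.6% of genes tested were called higher. Capn2, the catalytic subunit of the protease m-calpain, was 6.88, 6.59 and 6.77 log2 in control and 8.58, 9.16 and 9.83 in the shEp400 arrays. It rose 5.43-fold (log2 difference 2.44, SE 0.28, limma adjusted p = 0.000168), or 3.42-fold without background correction. Sri rose 1.56-fold (limma adjusted p = 0.0388), but was no longer called in 5 of 6 leave-one-out fits, nor with 75th percentile scaling (adjusted p = 0.0807) or with no filter on dim probes (adjusted p = 0.0724). Its adjusted p ranged from 0.00382 to 0.134 over the settings tried. Capn1, Capns1, Pef1 and Gca were not called.

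Genes of plasma membrane repair and caveolae rose in 7 of 10 measured cases, of 16 listed, and 0 fell, where 20.6% of genes tested were called higher. With no filter on dim probes, 7 of the 16 were called higher and the median log2 difference was 0.26, against 1.00 over the 10 measured. Cav1, the coat protein of caveolae, was 7.15, 6.36 and 6.68 log2 in control and 8.99, 8.85 and 9.87 in the shEp400 arrays. It rose 5.69-fold (log2 difference 2.51, SE 0.29, limma adjusted p = 0.000178), or 3.51-fold without background correction. Ahnak, a giant scaffold that annexin A2 and S100a10 bring to the membrane, rose 3.05-fold (SE 0.16 log2, limma adjusted p = 0.000102). Its log2 signal was 10.16, 10.07 and 9.95 across the control arrays and 11.64, 11.56 and 11.82 with shEp400, so the groups were apart.

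The remaining members of that list that rose are named after their values were seen. Smpd1, the acid sphingomyelinase released at wounds, rose 2.78-fold, the caveolar protein Cavin1 2.55-fold and Dysf, the repair protein dysferlin, 2.31-fold. Pdcd6ip rose 1.74-fold and Vps4a, an ATPase of the ESCRT machinery, 1.40-fold. Pdcd6ip was not called when control replicate 3 (adjusted p = 0.0702) or shEp400 replicate 2 (adjusted p = 0.0802) was dropped, nor Vps4a in 5 of 6 leave-one-out fits or with 75th percentile scaling. Without control replicate 3, or without shEp400 replicate 2, 5 of the 10 genes rose. Chmp4b, Ehd1 and Ehd2 were not called.

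Plasminogen activation genes, whose products meet annexin A2 at the cell surface, rose in 4 of 4 measured cases. Over all genes tested, 20.6% were called higher. With no filter on dim probes, 4 of the 6 on the array were called higher, with a median log2 difference of 1.25 against 1.95 over the 4 measured. Plat, the tissue activator that annexin A2 binds, was 5.10, 5.70 and 5.27 log2 in control and 7.25, 7.80 and 7.32 in the shEp400 arrays. It rose 4.28-fold (log2 difference 2.10, SE 0.22, limma adjusted p = 0.000112), or 2.02-fold without background correction. Plaur, the receptor of the urokinase activator, rose 3.88-fold (limma adjusted p = 0.000274) and was above background on 2 of 3 control arrays. Plau, urokinase itself, rose 3.84-fold and was above background on 1 of 3 control arrays. Without background correction Plaur and Plau rose 1.85-fold each. Plgrkt, a plasminogen receptor, rose 1.47-fold, but was not called when control replicate 1 or shEp400 replicate 2 was dropped or with 75th percentile scaling. Plau and Plgrkt are named after their values were seen. Plasminogen (Plg) was detected on 0 arrays, and Fpr2, a receptor of annexin A1, on 1 array.

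The machinery that exposes phosphatidylserine, the lipid annexins bind, was measured for 3 of 12 genes, of which 1 rose. The share called higher among all genes tested was 20.6%. Xkr8, a scramblase of dying cells, rose 1.76-fold (limma adjusted p = 0.0191) and was above background on 2 of 3 control arrays. Dropping replicate 3 of either group ended the call (adjusted p = 0.0582 for control and 0.0583 for shEp400). Tmem30a and Plscr1 were not called. Of the copines, a separate family that also binds phospholipid when calcium rises, 3 of 9 were measured. Cpne2 rose 2.20-fold (limma adjusted p = 0.00249), or 1.45-fold without background correction, and Cpne8 2.13-fold (limma adjusted p = 0.00125), while Cpne9 fell by 1.38 on the log2 scale (SE 0.23, limma adjusted p = 0.00118). Cpne9 was 6.86, 6.93 and 6.36 log2 in control and 4.98, 5.33 and 5.70 in the shEp400 arrays, and the fall of 1.38 became 0.58 without background correction (log2 difference -0.58).

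The medians of the 4 larger of these lists are given beside those of the fibroblast markers. The latter were 1.56, 2.00 and 2.21 on shEp400 arrays 1, 2 and 3, and 1.26, 1.52 and 1.32 for the defining markers. On the same arrays the S100 medians were 1.28, 1.58 and 1.96, those of membrane repair 0.80, 1.17 and 0.98, and those of penta-EF-hand genes 0.26, 0.49 and 0.56. The plasminogen list had medians of 1.38, 2.05 and 2.17. Membrane repair, like the defining markers, was highest on array 2, and the other lists were highest on array 3. The part of the feeder cells in these rises was not tested. Genes below background on most arrays were not measured and are in none of these counts.

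**Figure D4:**
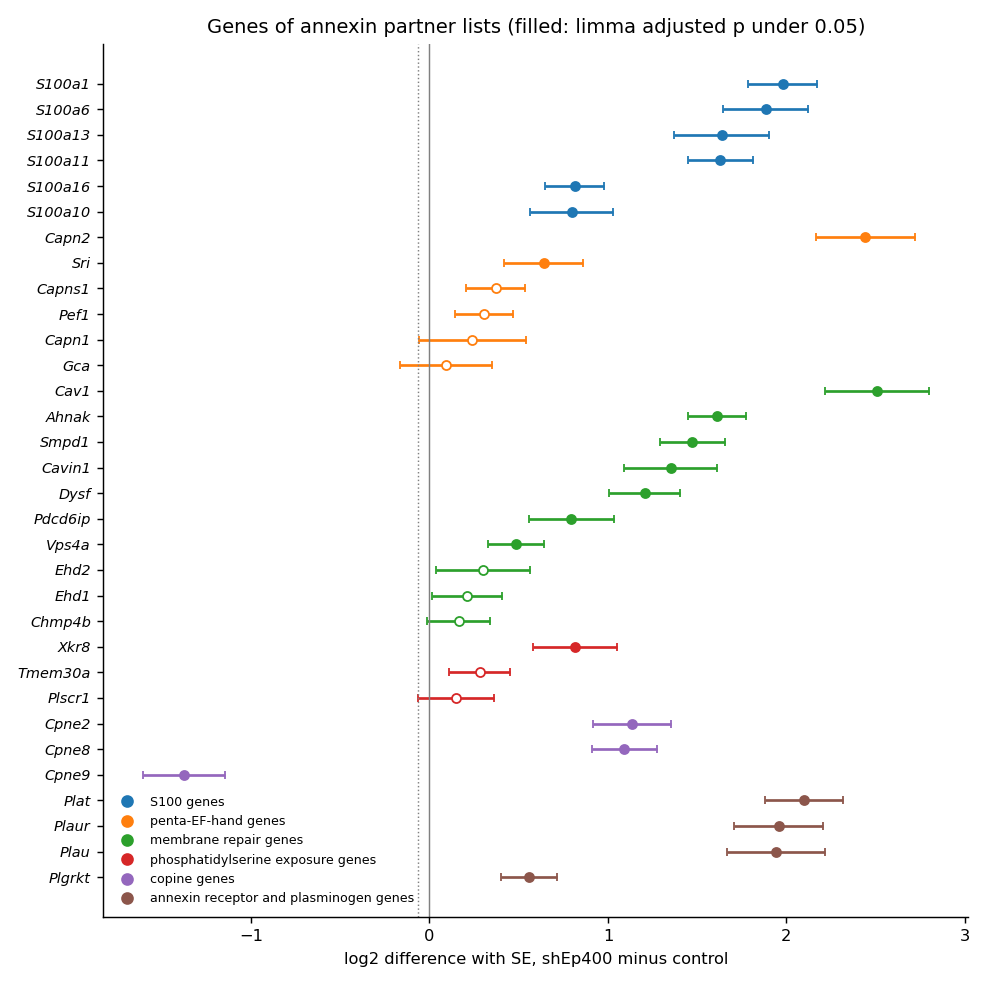
Log2 difference with SE, shEp400 minus control (x axis), of the measured genes of 6 lists of annexin partners and related genes. Filled points passed limma at an adjusted p of 0.05, open points did not, and the dotted line is the median of all genes tested (-0.06). Capn2 (2.44) and Cav1 (2.51) lie farthest to the right, and Cpne9 (-1.38) is the one gene that fell.

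The genes whose pattern over the 6 arrays was most like the mean of the standardized annexin values were Pla2g15 (Pearson r = 0.9994), Ccl5 (0.993), Map4k4 (0.9909), Man2b1 (0.9891) and Actn4 (0.9889). That mean covered all 9 members, including the 4 not called. It was -0.38, -0.24 and -0.78 on control arrays 1 to 3 and 0.06, 0.82 and 0.52 on shEp400 arrays 1 to 3. The mean was thus highest on shEp400 array 2, while Anxa1, Anxa2, Anxa3 and Anxa5 were highest on array 3. All of the points share the same 6 arrays, which fall into the 2 groups, and 150 genes (1.54% of those tested) had an r of at least 0.95. Among the annexins themselves, Anxa2 and Anxa5 were the most alike (r = 0.99) and Anxa1 and Anxa11 the most opposed (r = -0.863). Map4k4 and Man2b1 were not called by limma. Man2b1 was called in 4 of 8 other settings. Of these, no background correction and the authors' processed matrix gave the same log2 difference (0.34). With the mean of kept probes, the fold of Man2b1 went from 1.29 to 2.04 (limma adjusted p = 0.00266, over a range of 0.00266 to 0.484). Map4k4 turned from a log2 difference of 0.20 to -0.02 with 75th percentile scaling. These correlations are descriptions and carry no test.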

How the data were processed

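The members and all gene lists were chosen with earlier results of these data known. The data were 6 Illumina bead arrays of mouse ES cells, 3 control and 3 shEp400. Signal intensities on a linear scale, with a detection p-value per probe, were deposited by the authors for 45281 probes. They came from GenomeStudio, per the submitters' processing notes, with no version given in the sources used here. A deposited processed matrix, also linear intensities, ranked probes as the signals did (rank correlation 1) and had near-equal medians, 114.4 to 114.5, so its scale is linear and uncentred. It served as an alternative, but nearly repeated the setting without background correction, with 4235 genes changed in both. Of the probes, 34885 had 1 symbol in the platform annotation, 18 had several and 10378 had none.

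Log2 values were computed here with the steps of neqc in limma 3.58.1 (R 4.3.3): background from detection p-values, offset 16, quantile normalization. The filter retained 14238 named probes that passed detection p 0.01 on 3 or more arrays, and a gene was its brightest kept probe, giving 9736 genes. lmFit and eBayes compared the groups, two-sided, with Benjamini-Hochberg adjustment over all genes at 0.05, no covariate and 4 residual degrees of freedom. Steps were tested on simulated data. Named were all annexins, Ep400, known annexin partners, the 2 largest called rises and falls of each list and the 5 genes most like the annexin mean. Others are marked. Alternatives changed background correction, normalization, filter, probe choice and source, or left out 1 array. Protein and probe sequences were not used here.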

Additional observations from a re-analysis of the deposited data

How the results depend on the processing

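The alternatives for the annexin counts gave 5 of 9 called higher throughout, except that 4 of 7 were called among probes detected on all 6 arrays, a filter that drops Anxa1 and Anxa7. Leaving out 1 array at a time gave 5 each time, and Anxa4, Anxa7, Anxa8 and Anxa11 were called in 0 of their fits. All genes changed numbered 4251, of which 47.2% were higher. With cyclic loess 59.4% were higher and with 75th percentile scaling 39.1%, and these moved the median of all genes from -0.06 to 0.05 and -0.17. The annexin range over settings other than single probes was 0.75 to 2.03 for Anxa1, 1.63 to 2.503 for Anxa2, 2.19 to 2.62 for Anxa3, 1.87 to 2.30 for Anxa5 and 0.69 to 1.05 for Anxa6, as log2 differences.

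Small lists depended on the settings. The penta-EF-hand count of 2 became 4 with cyclic loess and 1 with 75th percentile scaling or without a filter on dim probes, and leaving out 1 array gave 1 to 2. The phosphatidylserine exposure count of 1 became 0 among probes detected on all 6 arrays, and leaving out 1 array gave 0 to 1. The receptor and plasminogen count of 4 became 2 among those probes. Of 401 recomputed values for other named genes, 37 lost a call, 4 gained one, all of Man2b1, and 0 called values changed sign. Of the genes most like the annexin mean, Map4k4 was called in 0 of 14 fits, and Pla2g15 and Actn4 lost their calls in 4 and 5 of the 6 fits that left out 1 array. Ccl5 had a log2 difference of 3.62 without shEp400 replicate 1, from 2.98. Signal near background limits Anxa1, Anxa7 and Anxa8. No paired analysis was possible because the labels number no replicates within a group, and the replicate numbers used here follow accession order and only name arrays.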
